A study of Mus musculus with 4 samples.

Results

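The proteasome is the large protease that degrades most ubiquitin-tagged proteins of a cell, and its subunit genes were measured here in irradiated blood-forming cells with and without necdin. Necdin (Ndn) is a growth suppressor encoded by an imprinted gene. The genes were chosen by name as core, regulatory and activator subunits, and each was read from the probe sets that the array's annotation gives to that gene symbol alone. Of 36 subunit genes listed, 35 were found, on 78 probe sets, out of 18194 named genes on the array. Psme2 was not analysed here, because its probe set carries 2 symbols.

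RNA was taken from sorted bone marrow of the phenotype Lin-Sca-1+c-Kit+ (LSK), in which stem cells and early progenitors are enriched. The hosts were C57BL/6 mice whose blood system had been rebuilt from fetal liver that was necdin null in 1 group and wild type in the other, and both groups had then received 6.5 Gy of sublethal irradiation. Each group had 2 Affymetrix arrays, and no unirradiated array was analysed here, so neither group shows the effect of irradiation. The age of the mice, the time after irradiation, the part of Ndn that was deleted and the share of host cells left in the marrow are not given in the sources used here. Whether the replicates of a group came from separate animals is also not stated, so a p-value here measures array-to-array spread, part of which may be technical.

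The 20S core is a barrel of stacked rings. The outer rings are built from alpha subunits, which gate the entry, and the inner rings from beta subunits, of which Psmb5, Psmb6 and Psmb7 carry the proteolytic sites. The 19S regulatory particle binds ubiquitin chains, removes them and unfolds the substrate with a ring of ATPases. Other caps, such as PA28 and PA200, open the core without the ATPases. In cells exposed to interferon, Psmb8, Psmb9 and Psmb10 take the places of Psmb5, Psmb6 and Psmb7 and form the immunoproteasome, which favours peptides for antigen presentation. Blood stem cells are known for slow protein synthesis and for their dependence on protein quality control, to which the proteasome belongs.

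Of the 4 arrays, necdin null replicate 2 stood apart before any gene was compared. On it, 37.4% of the summed signal came from the brightest 1% of probe sets, against 28.9% to 30.6% on the other arrays. Its control probe sets for Gapdh gave a 3' to 5' signal ratio of 15.8, against 9.96 to 11.7. Ndn has 8 probe sets, and the signal left in necdin null cells differed between them. On the probe set with the highest wild type signals (559 and 391.8) the necdin null arrays had 2.73 and 12.1. On the main probe set, the brightest on the log scale, which stands for the gene in the test, necdin null cells had 55.4 and 105 and wild type cells 253 and 255 (difference -1.68 on the log2 scale, standard error 0.46). Kit, a gene of the sorting gate, was at 6049 and 3744 in necdin null and at 6617 and 3976 in wild type cells, while the gate's other gene, Ly6a, was not analysed here. Of the markers of other cell types, 7 of 7 for neutrophils lay above the filter on low values, with none at 0. Their signals summed to 52500 and 137471 in necdin null and to 32141 and 92807 in wild type cells, so that the second replicate was the higher one in both groups. Monocyte and macrophage markers (6 of 6 above the filter) summed to 9018 and 16286 against 7311 and 14507. Most of that sum was Lyz2, at 6751 and 12613 against 5790 and 8401. By contrast, Csf1r, Ly86, Adgre1 and Cx3cr1 were highest in wild type replicate 2, and Cd68 was highest in necdin null replicate 1. T lineage markers (1 of 6 above the filter) summed to between 58.4 and 168 on all arrays.

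No proteasome gene passed the test between necdin null and wild type cells, and the differences were small. Of the 35 genes, 24 had a higher and 11 a lower mean log2 value in necdin null cells, with a median difference of 0.09 on the log2 scale against -0.03 over the 12680 genes tested. The largest difference belonged to Psma4, a subunit of the alpha ring, which was 1.67-fold higher. At a limma adjusted p under 0.05, 0 of 35 were called, as were 0% of all genes, and the adjusted p of every proteasome gene was at least 0.999 after rounding. Ndn itself was not called either (limma adjusted p = 0.999), so at 2 arrays a group the test can miss a difference of that size. At an unadjusted limma p under 0.05, Psma4 was the 1 gene that was higher and 0 were lower, where 1.07% of all genes were higher and 1.95% lower. Differences are necdin null minus wild type and are on the log2(signal + 3.80) scale, where 3.80 is the pseudocount. Because RNA was taken from a sorted population, fewer cells of a kind and less RNA per cell cannot be told apart.

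The limits on these differences were narrower than a doubling for nearly all of the genes. The 95% interval of the difference lay within 2-fold in both directions for 34 of 35, and for Psma4 it ran from 0.24 to 1.24. Interval half-widths were between 0.40 and 0.64, so differences of the size given below for most genes could not be separated from 0. For 27 of 35 genes the gap between the necdin null arrays was larger than the difference between the genotypes. Both necdin null arrays lay above both wild type arrays for 8 genes (Psma2, Psma4, Psma7, Psmb1, Psmb5, Psmb6, Psmd4 and Psmd14), which is 22.9% of the 35, where 12.8% of all genes did so. Both lay below for 1 gene, Psme4, or 2.86%, where 17.7% of all genes did so. The latter share depended on signal: it was 1.48% over genes with a mean log2 value of at least 13, which 15 of the 35 reached. With 2 arrays a group, an exact permutation test cannot give a two-sided p under 0.333.

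**Figure D1:**
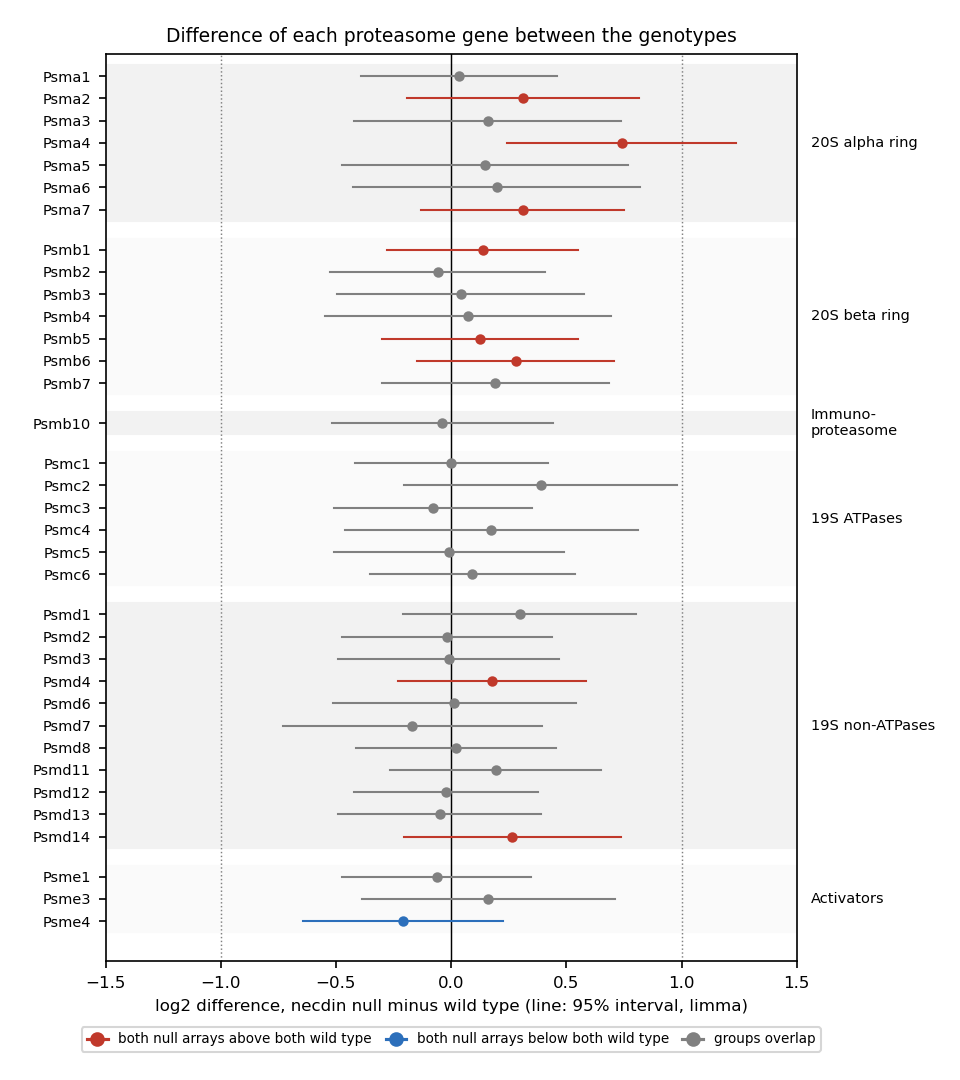
Log2 difference between necdin null and wild type LSK cells for 35 proteasome genes, grouped by subcomplex (horizontal axis, necdin null minus wild type; points, differences of group means over 2 arrays each; lines, 95% limma intervals; dotted lines, 2-fold). The intervals of 34 genes cross 0 and lie within 2-fold, and that of Psma4 runs from 0.24 to 1.24; red marks the 8 genes whose null arrays both lay above both wild type arrays, and blue marks Psme4, where both lay below.

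Promoter sequence is shown for some of the genes. These are Psma4, which differed most, then Psmb5, Psmb6 and Psmd4, of the genes higher with groups apart, and Psme1 and Psme4, of the activators. They do not stand for all genes with groups apart. Psma2, Psma7 and Psmd14, whose windows matched only the CCAAT motif among those searched, are not shown. Each line gives 200 bases before to 20 bases after the start site used for the RefSeq promoter windows, build GRCm38.p6, read 5′ to 3′ in the direction of the gene. For Psma4 that site lay 78 bases downstream of the first base of the RefSeq gene, and for Psmb6 33 bases. For the others it was that first base. Capitals mark matches, on either strand, to the searched motifs, which are CCAAT (the box bound by NF-Y), TGACNNNGC (the core of the antioxidant response element, through which Nfe2l1 raises proteasome genes when the protease is blocked), CCGGAAG (an ETS core), TTCNNNGAA (a STAT core) and the core of the interferon-stimulated response element, in which GAAA is followed by any 2 bases and GAAA. The stretches are chr9:54950659-54950878 on the plus strand for Psma4, chr14:54617976-54618195 on the minus strand for Psmb5, chr11:70525157-70525376 on the plus strand for Psmb6, chr3:95042595-95042814 on the minus strand for Psmd4, chr14:55578294-55578513 on the plus strand for Psme1 and chr11:30771575-30771794 on the plus strand for Psme4.
Psma4: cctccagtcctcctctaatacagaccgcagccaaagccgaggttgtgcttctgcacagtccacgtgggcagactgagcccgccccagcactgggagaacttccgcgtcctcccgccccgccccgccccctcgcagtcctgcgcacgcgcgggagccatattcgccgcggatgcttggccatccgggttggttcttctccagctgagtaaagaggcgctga
Psmb5: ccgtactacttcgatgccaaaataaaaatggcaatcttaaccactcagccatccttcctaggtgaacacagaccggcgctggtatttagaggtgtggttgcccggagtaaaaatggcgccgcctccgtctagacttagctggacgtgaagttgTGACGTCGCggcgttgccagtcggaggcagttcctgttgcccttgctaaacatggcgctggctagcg
Psmb6: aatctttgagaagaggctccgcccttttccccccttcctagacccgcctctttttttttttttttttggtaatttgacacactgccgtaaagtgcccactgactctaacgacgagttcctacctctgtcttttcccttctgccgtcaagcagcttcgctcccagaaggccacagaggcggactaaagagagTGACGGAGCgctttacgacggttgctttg
Psmd4: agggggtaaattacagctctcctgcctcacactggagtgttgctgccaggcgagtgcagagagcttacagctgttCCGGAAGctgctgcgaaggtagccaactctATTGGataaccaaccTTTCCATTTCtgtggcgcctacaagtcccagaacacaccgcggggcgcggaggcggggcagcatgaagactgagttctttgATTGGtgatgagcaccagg
Psme1: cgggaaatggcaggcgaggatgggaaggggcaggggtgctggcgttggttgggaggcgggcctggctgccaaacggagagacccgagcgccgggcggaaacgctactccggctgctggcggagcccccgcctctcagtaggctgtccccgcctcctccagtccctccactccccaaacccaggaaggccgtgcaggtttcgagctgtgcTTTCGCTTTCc
Psme4: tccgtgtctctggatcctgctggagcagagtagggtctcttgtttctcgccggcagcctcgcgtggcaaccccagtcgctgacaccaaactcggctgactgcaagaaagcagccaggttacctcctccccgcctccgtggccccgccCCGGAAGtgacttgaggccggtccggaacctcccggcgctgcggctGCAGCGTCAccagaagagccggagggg

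Over the whole window of 250 bases before to 50 after the start site, 30 of the 36 listed genes had an entry, 33 entries in all among 32851 of the table. The ETS core was held by 39.4% of the proteasome entries against 8.86% of all entries, in 12 genes (Psma6, Psmc1, Psmc2, Psmc6, Psmd2, Psmd4, Psmd6, Psmd11, Psmd12, Psmd13, Psme3 and Psme4), 9 of them genes of the 19S particle. The CCAAT box was held by 33.3% against 37.4%, and the antioxidant response element core by 15.2% against 12.4% (Psmb5, Psmb6, Psmc6, Psmd12 and Psme4). The interferon-stimulated response element core was found in Psmb3, Psmd4 and Psme1 (9.09% against 3.44%), and the STAT core in Psmd2 (3.03% against 8.30%). The median GC content was 59% in proteasome entries and 52.7% over the table, and matches of different motifs did not overlap each other in any proteasome entry. These matches describe letters in the windows, and no binding was measured. In the printed stretch of Psma4 none of the motifs was found, whereas that of Psmd4 held 4 matches. The 5 genes with the antioxidant response element core did not share a direction. Both necdin null arrays were the higher ones for Psmb5 and Psmb6, and the lower ones for Psme4 on its main probe set (its others are given below). The groups overlapped for Psmc6 (difference 0.09) and Psmd12 (-0.02). All 5 intervals of the difference held 0, and a link between motif and difference was not tested.

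All 7 alpha ring genes had a higher mean in necdin null cells, with a median difference of 0.20, and 4 of them (Psma1, Psma3, Psma5 and Psma6) had a difference below 0 after quantile normalization. Psma4 had signals of 3783 and 3914 in necdin null cells and of 2774 and 1913 in wild type cells, read from 1 probe set (1460339_at). Its null arrays lay close together and both wild type arrays lay below them, the second furthest. The means were 3849 ± 92.0 and 2343 ± 609 (SD, n = 2 each), which differ by 0.74 on the log2 scale (standard error 0.22, limma unadjusted p = 0.0085, adjusted p = 0.999). This was the 52nd smallest p of the 12680 genes. The difference was 0.47 without wild type replicate 2 but 1.01 when the other wild type array was left out, and over all alternatives its unadjusted p lay between 0.0018 and 0.087. It therefore rests in part on wild type replicate 2, without which the unadjusted p was above 0.05.

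Psma7, which also forms part of the alpha ring, had 9335 and 9666 in necdin null cells and 7022 and 8359 in wild type cells. Both null arrays were above both wild type arrays, and the wild type arrays differed from each other by more than the null arrays did. Its difference was 0.31 with a standard error of 0.19 (95% interval -0.13 to 0.75). Psma2 differed by 0.31 with a standard error of 0.22, again with groups apart, and by 0.11 without necdin null replicate 2. Psma3, Psma5 and Psma6 were the brightest of the ring, up to 37515 for Psma6. Each was highest in necdin null replicate 2 and lowest in necdin null replicate 1, with differences of 0.16, 0.15 and 0.20. Without necdin null replicate 2 these differences were -0.13, -0.22 and -0.14, and with quantile normalization they were also slightly below 0, at -0.04, -0.05 and -0.04. These values are of the main probe sets. On another bright probe set (1424681_a_at) Psma5 had 9064 and 11272 in necdin null cells against 8465 and 8827, with groups apart (0.23). On that of Psma6 (1416506_at) the groups overlapped (0.19). Dim probe sets of Psma3 (1441707_at, 0.46) and Psma6 (1435317_x_at, 0.53) were higher with groups apart. Psma1, at 9013 to 9620 on all arrays, differed by 0.03 and by -0.05 with quantile normalization.

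**Figure D2:**
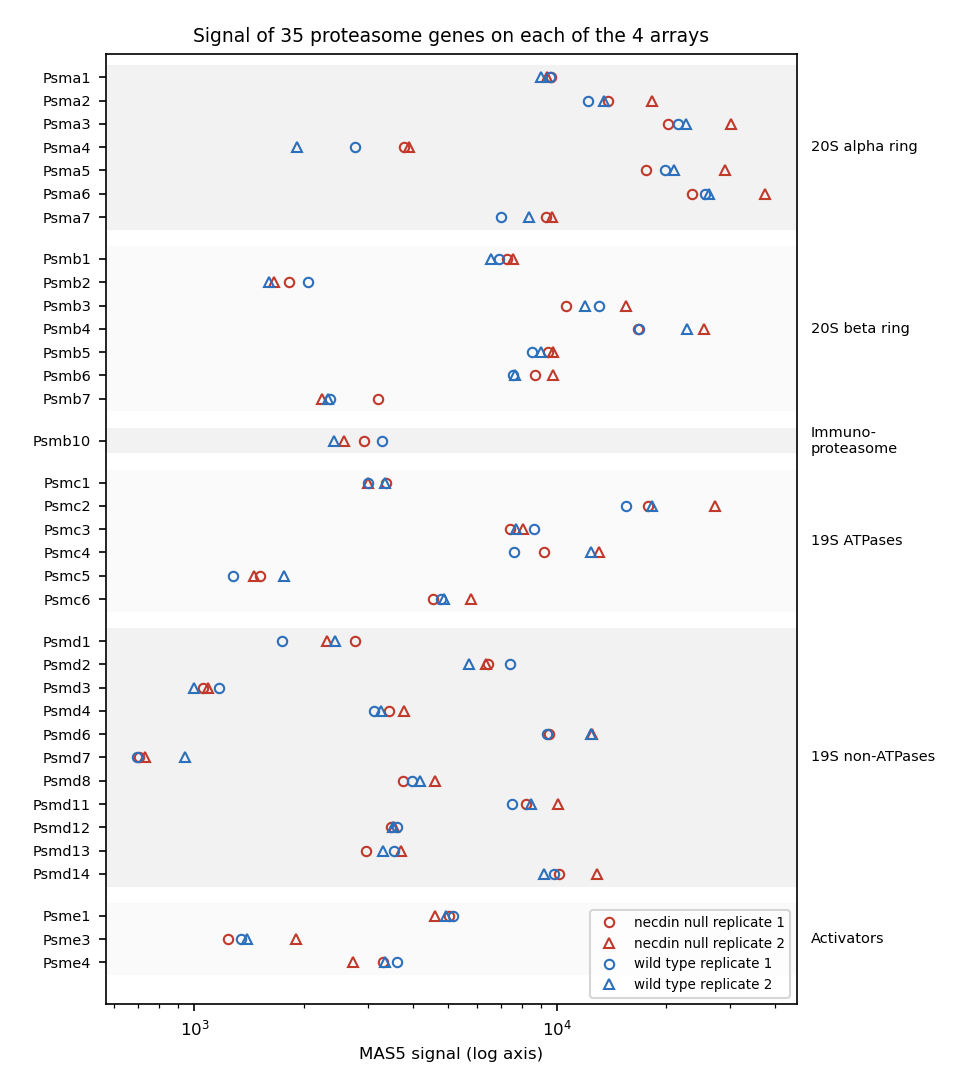
Deposited MAS5 signal (horizontal log axis, arbitrary units) of the main probe set of 35 proteasome genes on each of the 4 arrays, grouped by subcomplex (red, necdin null; blue, wild type; circles, replicate 1; triangles, replicate 2). Necdin null replicate 2 is the rightmost symbol for 21 genes, most of them bright, while for Psma4 both wild type arrays lie to the left of both null arrays.

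Of the 7 constitutive beta ring genes, 6 had a higher mean in necdin null cells, with a median difference of 0.13. Psmb6, the subunit with caspase-like activity, had 8699 and 9765 in necdin null cells and 7537 and 7636 in wild type cells. The groups did not overlap, and the wild type arrays were nearly equal. The difference was 0.28 with a standard error of 0.19 (95% interval -0.15 to 0.71), and it kept its direction under every alternative, between 0.20 and 0.36. Psmb7, the subunit with trypsin-like activity, had 3203 and 2250 against 2366 and 2333. Only necdin null replicate 1 was high, and the other null array was the lowest of the 4. Its difference of 0.19 (standard error 0.22) thus rests on that array, and it was -0.06 without it. Psmb5, the subunit with chymotrypsin-like activity, was at 8520 to 9726 on all arrays with a difference of 0.13 and groups apart, and Psmb1, a structural beta subunit, differed by 0.14 with groups apart. Psmb2, Psmb3 and Psmb4 differed by -0.06, 0.04 and 0.07, with groups overlapping, and by 0.0088, -0.23 and -0.23 without necdin null replicate 2.

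The immunoproteasome subunits had differences just below 0. Psmb10 had 2930 and 2582 in necdin null cells and 3297 and 2420 in wild type cells. The wild type arrays held both the highest and the lowest value, so the groups overlapped. Its difference was -0.04 with a standard error of 0.21 (95% interval -0.52 to 0.44), and it turned to 0.18 without wild type replicate 1. Its partner Psmb8 had 5239 and 4942 against 5357 and 5783, both null arrays being the lower ones (difference -0.13, standard error 0.18). Psmb9 had 3650 and 3437 against 3851 and 3264, and the null arrays lay between the wild type arrays (difference -0.0014, standard error 0.19). The difference between constitutive and immunoproteasome subunits was not tested.

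Among the 6 ATPases of the 19S base, 4 had a higher and 2 a lower mean, none with groups apart, and the median difference was 0.05. Psmc2 had 17790 and 27251 in necdin null cells and 15490 and 18273 in wild type cells. Necdin null replicate 2 was far above the other arrays, and the first null array lay below the second wild type array. The difference of 0.39 (standard error 0.26, 95% interval -0.20 to 0.98) was the second largest of the 35 genes on the deposited scale and was 0.08 without necdin null replicate 2. Psmc4 had 9186 and 13038 against 7604 and 12378. Here both second replicates were high and both first replicates low, so that the groups interleaved, and the difference of 0.17 had a standard error of 0.28. It was 0.53 without wild type replicate 2, but -0.18 when replicate 1 of that group was left out. Psmc1 was the gene of smallest difference, with 3366 and 3002 against 3015 and 3350, or 0.0003 with a standard error of 0.18. Psmc3, Psmc5 and Psmc6 differed by -0.08, -0.01 and 0.09.

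The 11 non-ATPase genes of the 19S particle were divided, 6 being higher and 5 lower, and their median difference was 0.01. Psmd14, the deubiquitinase that strips the ubiquitin chain from the substrate, had 10107 and 12920 against 9812 and 9211. The first null array was only just above the first wild type array. Its difference was 0.27 with a standard error of 0.21 (95% interval -0.21 to 0.74), and 0.09 without necdin null replicate 2. Psmd1, a scaffold subunit of the base, had 2763 and 2320 against 1738 and 2439. The groups overlapped, wild type replicate 1 being the low one, and the difference of 0.30 (standard error 0.22) was 0.05 without that array. Psmd4, a ubiquitin receptor of the particle, had 3448 and 3792 against 3116 and 3277, both null arrays being higher (difference 0.18, standard error 0.18). The least variable gene was Psmd12, at 3479 to 3613 on all arrays, with a difference of -0.02. The other 7 genes of this group differed by between -0.17 (Psmd7) and 0.19 (Psmd11).

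Of the activators, Psme4 was the gene with the most negative difference of the 35. Psme4 encodes PA200, a nuclear cap of the core particle, and had 3311 and 2735 in necdin null cells and 3618 and 3347 in wild type cells on its brightest probe set (1426823_s_at). Both null arrays were the lower ones, the first by a small margin. The difference was -0.21 with a standard error of 0.19 (95% interval -0.64 to 0.22), and -0.07 without necdin null replicate 2. Its probe sets disagreed: 1452211_at had -0.52 and 1426824_at had -0.38, whereas the dim 1445147_at and 1446464_at had 0.73 and 0.64, and the mean over all 5 was 0.05. Psme1, a subunit of the interferon-inducible cap PA28, had 5037 and 4618 against 5158 and 4924, with overlapping groups and a difference of -0.06 (standard error 0.18). Psme3, which forms the nuclear PA28 cap on its own, had 1237 and 1904 against 1346 and 1399. Its null arrays were the lowest and the highest of the 4, and the difference of 0.16 (standard error 0.24) was -0.15 without necdin null replicate 2.

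Across the arrays, most proteasome genes were highest on necdin null replicate 2, chiefly the brighter ones, while 4 were lowest on it. A gene's deviation on an array is its log2 value minus its mean over the 4 arrays. Over the 35 genes the median deviation was -0.03 on necdin null replicate 1 and 0.16 on replicate 2, while the wild type arrays had -0.10 and -0.04. Necdin null replicate 2 held the highest value of 21 genes, wild type replicate 1 of 8, necdin null replicate 1 of 4 and wild type replicate 2 of 2, whereas over all genes tested the 4 arrays held 25.1%, 26.4%, 19.8% and 28.7% of the highest values in that order. In the alpha ring the median deviation on necdin null replicate 2 was 0.37 and this array was highest for 6 of 7 genes. It was 0.09 in the beta ring, 0.12 in the ATPases, 0.14 in the non-ATPases and -0.09 in the 3 activators. Without necdin null replicate 2 the median difference of the 35 genes was -0.0009, with 17 higher and 18 lower, and without necdin null replicate 1 it was 0.17. By subcomplex, the medians without necdin null replicate 2 were 0.05 in the alpha ring, 0.10 in the beta ring, -0.03 in the ATPases, -0.03 in the non-ATPases and -0.07 in the activators. The neutrophil sums and the 3' to 5' ratio given above were also highest on this array, and their part in the result was not tested.

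**Figure D3:**
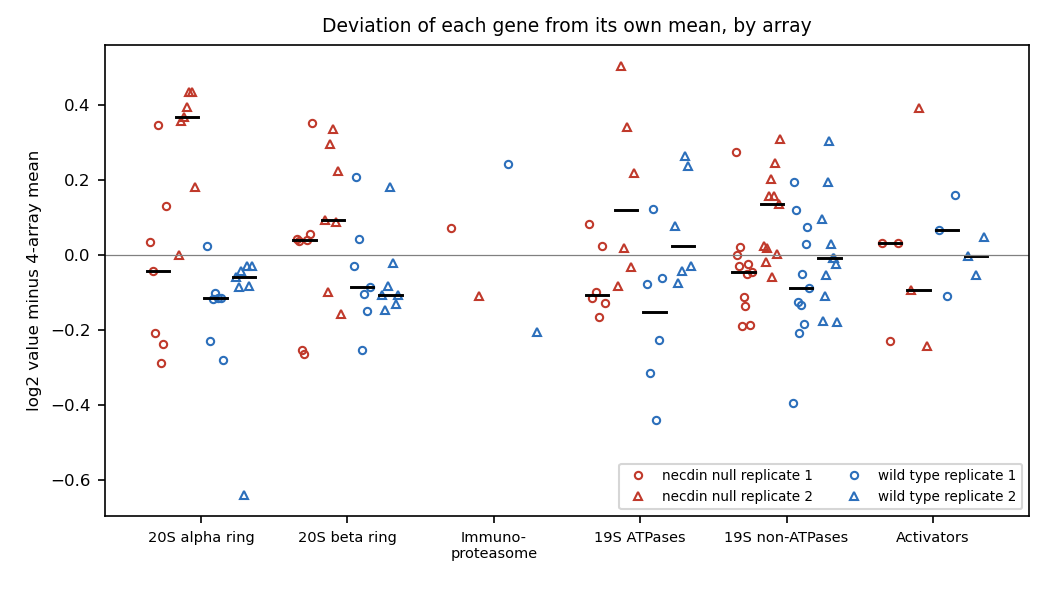
Deviation of each proteasome gene from its own mean over the 4 arrays (vertical axis, log2 units), by subcomplex and array (red, necdin null; blue, wild type; circles, replicate 1; triangles, replicate 2; black bars, median of the genes of a subcomplex with several genes). The red triangles of the alpha ring have a median of 0.37, while those of the activators have a median of -0.09.

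The deviation on necdin null replicate 2 was larger in brighter genes, among the proteasome genes as among all bright genes. Across the 35 genes, which share their arrays, the Spearman correlation of mean log2 value with the deviation on that array was 0.65, given as a description without a test, and over all 12680 genes it was 0.05. Of the 35, 15 had a mean log2 value of at least 13, a level chosen after the values were seen: 6 in the alpha ring, 4 in the beta ring, 2 ATPases and 3 non-ATPases. All 15 were higher in necdin null cells, with a median difference of 0.17, and 14 were highest on necdin null replicate 2. Of the 609 genes on the array at that level, 87.4% were higher, with a median difference of 0.15, and 81.3% were highest on necdin null replicate 2. Without that array, 8 of the 15 brighter proteasome genes were higher, with a median difference of 0.05, and 41.1% of the 609 genes were, with a median of -0.03. The 20 dimmer proteasome genes had a median difference of -0.01, with 9 higher and 7 highest on that array. Both null arrays lay above both wild type arrays for 5 of the 15 brighter genes, where 19.9% of all genes at that level did so, and for 3 of the 20 dimmer genes, where 12.4% of dimmer genes did so.

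Most of the difference of the brighter subunits was absent after quantile normalization, which gives the arrays the same distribution of values. That step took the median difference of the 15 brighter genes from 0.17 to 0.03. Over all 609 genes at that level it went from 0.15 to -0.0002, a fall largely built into a method that equates the brightest values. The median of the 14 constitutive 20S genes went from 0.15 to 0.01 and that of the 17 genes of the 19S particle from 0.01 to 0.03, and by subcomplex the alpha ring went from 0.20 to -0.04 and the beta ring from 0.13 to 0.03. The split of the 35 genes was 24 higher and 11 lower on the deposited scale, 19 and 16 with quantile normalization, 21 and 14 with cyclic loess, and 18 and 17 when each array was centred on its median, a step after which the 12680 genes had a median of -0.11 in place of -0.03. Centring moves all genes of an array alike, and the 35 genes then had a median of 0.01 in place of 0.09. With that centring 5 proteasome genes were higher and 1 lower with groups apart, where 7.42% and 23.2% of all genes were. Of the 8 genes that were higher with groups apart on the deposited scale, 4 remained so after centring, the fifth being Psmc2, and the lower gene was Psmd7 in place of Psme4. With quantile normalization 8 genes were higher and 4 lower with groups apart, where 12.8% and 17.8% of all genes were. Of the same 8 genes, 7 were higher with groups apart there too, Psmb5 being the exception, and Psme4 was still lower. In all alternatives that gave a value (15 or 16 a gene), 12 genes kept the direction of their difference: Psma2, Psma4, Psma7, Psmb5, Psmb6, Psmc2, Psmd1, Psmd4, Psmd11 and Psmd14 as higher, and Psmd12 and Psme1 as lower. Some alternatives could not turn a direction. The changes of filter and of variance model and the added replicate number left every difference as it was, and the changes of pseudocount hardly moved it. The share of all genes that kept their direction was not computed.

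**Figure D4:**
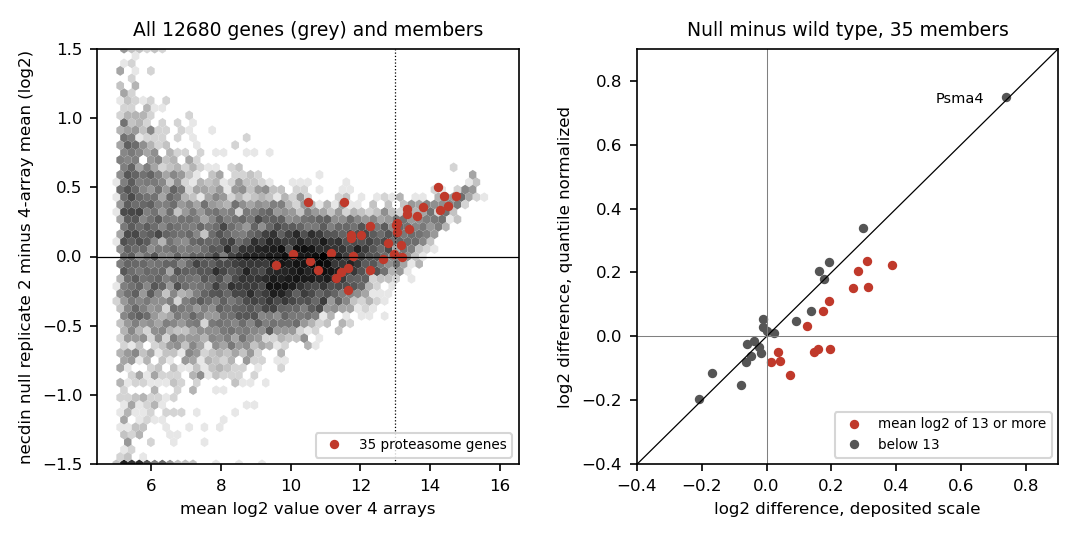
Left, deviation on necdin null replicate 2 against mean log2 value (grey, density of all 12680 genes on a log scale, with values beyond the axis drawn at its edge; red, 35 proteasome genes; dotted line, mean log2 value of 13). Right, log2 difference between necdin null and wild type of the 35 proteasome genes on the deposited scale (horizontal) and after quantile normalization (vertical), with the line of equal values; the 15 genes with a mean log2 value of at least 13 (red) lie below the line, at a median of 0.17 and 0.03, and Psma4 lies on it.

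Signals of different probe sets depend on their sequences, so they give no order of abundance between subunits. They ran from 1913 to 37515 in the alpha ring, from 1605 to 25329 in the beta ring, from 1275 to 27251 among the ATPases, from 694 to 12920 among the non-ATPases and from 1237 to 5158 among the activators. All 35 main probe sets lay above the filter on low values, at a signal of 30.3. Above it 19 genes had more than 1 probe set, and of their 30 further probe sets 20 had the sign of the main one. All probe sets had the same sign for 12 of these 19 genes. For Psma7, the second probe set was also higher with groups apart (0.23), and for Psmc2 the second had 0.11 in place of 0.39. For 18 genes the main probe set was of a kind (_s_at, _x_at or _a_at) that can bind transcripts of several genes or several transcripts of 1 gene, so related sequences may share in those signals.

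Other genes of the ubiquitin and proteasome system gave no call either. In each of 7 lists 0 genes were called and 0 had an unadjusted limma p under 0.05. Of the assembly chaperones, 8 of 9 listed genes were tested, 4 were higher and 4 lower with a median difference of -0.03, and the smallest p belonged to Psmg4 (0.31, standard error 0.27) and Pomp (-0.15, standard error 0.21), both of which help to assemble the core. Of 12 ubiquitin receptors, deubiquitinases and inhibitors that bind the proteasome, 10 were tested, 5 higher and 5 lower, with a median of -0.04. The shuttle receptors Ubqln1 and Ubqln4 had -0.37 (standard error 0.19) and -0.33 (standard error 0.25), Ubqln1 with groups apart at 3597 and 3063 against 4509 and 4065. Of 6 genes of ubiquitin supply only Uba6, an activating enzyme, was tested, at 3213 and 3298 against 2504 and 2499. Its groups were apart, and its difference was 0.38 (standard error 0.18, limma adjusted p = 0.999).

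The p97 segregase, which extracts substrates for the proteasome, had 4 of 7 genes higher and 3 lower, with a median of 0.07. Its cofactors Nploc4 and Faf2, of smallest p in the list, had -0.53 (standard error 0.35) and -0.31 (standard error 0.22). The groups overlapped for Nploc4, at 502 and 266 against 568 and 491, and Faf2 was lower with groups apart. Vcp and Ufd1 of the same list were higher with groups apart, by 0.20 (standard error 0.19) and 0.18 (standard error 0.22). Of 9 transcriptional regulators of proteasome genes, 8 were tested, 2 higher and 6 lower, with a median of -0.12. Nfe2l2, which induces antioxidant genes, had 2751 and 3484 against 2525 and 2647 (0.26, standard error 0.20), and Stat3 had -0.27 (standard error 0.23). Of 10 genes of class I peptide loading and interferon signalling, 9 were tested, 3 higher and 6 lower, with a median of -0.03. Nlrc5, the transactivator of class I genes, had -0.37 (standard error 0.27), and Erap1, a peptide-trimming protease, had -0.23 (standard error 0.20). Among the immunoproteasome and tissue-specific subunits outside the 36, 3 of 4 were tested, and the testis subunit Psma8 had 428 and 224 against 609 and 155 (0.01, standard error 0.60).

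The same array pattern was present in other gene families, taken by the form of their symbols. The ribosomal list holds Rpl and Rps symbols, and the respiratory chain list those starting Nduf, Sdh, Uqcr, Cox4 to Cox8 or Atp5. A gene entered only with a probe set of 1 symbol above the filter, so the families are not complete. Their main signals ran from 17.3 to 77238 and from 25.9 to 42751, so not every gene was bright. Of 44 ribosomal protein genes 37 were higher in necdin null cells, with a median difference of 0.23, which was -0.0027 after quantile normalization, and 36 were highest on necdin null replicate 2. Without that array 6 of the 44 were higher, with a median of -0.10. Of 85 respiratory chain genes 65 were higher, with a median of 0.14, which was 0.03 after quantile normalization, and 47 were highest on that array. Without it 44 of the 85 were higher, with a median of 0.01. The proteasome genes, with medians of 0.09 and 0.02 and 21 of 35 highest on it, lay below both families on the deposited scale. This order was not tested.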

How the data were processed

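Gene expression was measured on 4 Affymetrix arrays of 45101 probe sets, 2 necdin null and 2 wild type. The deposited intensity values are MAS5 signals on a linear scale, per the submitters' processing notes (version not given in the sources used here), with a mean of 500.004 on each array after trimming 2% of probe sets at each end. Detection calls were not used. With 2 arrays a group, precision is limited by their number.

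Values were analysed as log2(signal + 3.80), the 10th percentile of all values serving as pseudocount, so differences of low genes are understated. Probe sets with 1 gene symbol in the platform annotation (34958) were named. A gene's main probe set is its brightest by mean log2 value. A filter at the 40th percentile (a log2 value of 5.09) left 12680 genes. The groups were compared with limma 3.58.1 in R 4.3.3 (lmFit, eBayes with intensity trend, two-sided, Benjamini-Hochberg over all 12680 genes). The code was tested on simulated data of this design.

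The proteasome genes and all lists were chosen with earlier results of these data known. Values per array are given for genes with an unadjusted p under 0.05, the 2 genes of smallest p in each subcomplex, Psmb8, Psmb9, Psmb10, Psme1 and the genes of largest and smallest difference; in other lists the 2 of smallest p are named. A few further proteasome genes and Ubqln1, Vcp and Ufd1 were given more detail after their values were seen. Motifs were searched in RefSeq promoter windows of GRCm38.p6; the array files name no build. Alternatives changed the pseudocount, filter, scaling, variance model, probe sets, calling rule and replicate block and left out each array.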

Additional observations from a re-analysis of the deposited data

How the results depend on the processing

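The number of proteasome genes called stayed at 0 under every alternative run, and the lowest adjusted p of a proteasome gene was 0.62 with the replicate block and 0.17 without necdin null replicate 1. Calls over all genes went from 0 to 3 with the replicate block, to 393 where groups that were apart and at least 2-fold different were counted without a p, and to between 0 and 4 when leaving out 1 array. Proteasome genes higher with groups apart went from 8 to 5 with median centring and to between 12 and 21 when leaving out 1 array, where a group of 1 array separates more easily: 27.6% to 30.1% of all genes were then higher and 32.2% to 38.6% lower with groups apart. Those lower with groups apart went from 1 to 4 with quantile normalization, 3 with cyclic loess, 0 with all probe sets averaged, 0 without _s_at, _x_at and _a_at probe sets, 4 with quantile normalization and the replicate block (chosen after seeing the data), and between 3 and 12 when leaving out 1 array. The difference changed sign under at least 1 alternative for 23 of 35 genes, and for 16 with all arrays kept. Among the genes given array by array, these were Psme4 (0.053 with all probe sets averaged), Psmc1 (-0.08 to 0.08 over all alternatives) and, when leaving out 1 array, Psmb10 (-0.26 to 0.18), Psmb7 (-0.062 to 0.45), Psmc4 (-0.18 to 0.53) and Psme3 (-0.15 to 0.47). Of the others, Psma5 had the widest range, from -0.22 without necdin null replicate 2 to 0.51 without necdin null replicate 1, both on its main probe set. Beyond the arrays left out, the cause was not tested. The median difference ranged from -0.0009 without necdin null replicate 2 to 0.18 without wild type replicate 2. An unadjusted limma p under 0.05 was reached by 7 genes without necdin null replicate 1 (Psma2, Psma3, Psma4, Psma5, Psma6, Psmc2 and Psmd14), where 7.74% of all genes reached it against 3.02% with all arrays, by 0 without wild type replicate 2 and by Psma4 alone in the other settings, except 2 (with Psmc2) with quantile normalization and the block. A lone array of a group was assumed to vary like the others. Same-numbered arrays deviated together with a correlation of 0.11 across genes over 2 pairs only, so the numbers were not treated as pairing. Each group has 1 array of each number, so the block could not change any difference, and the median was bound to stay at 0.09. Only the spread and the p-values could move with the block, and no call of a proteasome gene changed. In promoters cut to their last 200 bases, the ETS core was held by 39.4% of proteasome entries against 7.54% of all.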
